A study of Mus musculus with 2 samples.

Results

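Cyclic AMP is the second messenger that many hormone receptors raise inside a cell. Adenylyl cyclases make it from ATP, phosphodiesterases break it down, and protein kinase A (PKA) is its main effector. PKA is held inactive by regulatory subunits until these bind cyclic AMP. A-kinase anchoring proteins (AKAPs) tie the kinase to places in the cell, and the transcription factor CREB is a classical PKA substrate. The pathway has 2 textbook roles that meet in this tissue. In gonads and adrenals it carries the signal of pituitary hormones to the steroid-making enzymes, and at the primary cilium PKA phosphorylates Gli factors and holds hedgehog signalling in check. The genes of this machinery were described in the ovaries of newborn mice with hedgehog signalling switched on in ovarian somatic cells.

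The members were defined by gene symbol. The set was chosen with earlier results of these data known. Taken were all adenylyl cyclases (Adcy), all cyclic nucleotide phosphodiesterases (Pde followed by a number and 1 letter), all numbered AKAPs, the 6 PKA subunits Prkaca, Prkacb, Prkar1a, Prkar1b, Prkar2a and Prkar2b, and the factors Creb1, Crem and Creb3. This gave 56 genes with 152 probe sets, out of 18193 genes named by the annotation of the array platform.

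Both groups carried SmoM2, a constitutively active form of the hedgehog transducer Smoothened. Controls were Amhr2(+/+)-SmoM2 mice, with 2 unaltered copies of Amhr2, the gene of the anti-Müllerian hormone receptor. Mutants were Amhr2(cre/+)-SmoM2 mice, in which 1 Amhr2 copy carries Cre. Cre, the altered Amhr2 copy and SmoM2 activation therefore differ together between the groups and cannot be told apart, and the Amhr2 locus drives Cre in gonadal somatic cells rather than in germ cells. Ovaries were collected at 2 days of age. RNA of 8 mice was pooled for each group, and each pool was hybridised to 1 Affymetrix array of 45101 probe sets. Since each group has 1 array, replicate error could not be estimated, no test was possible, and every difference below describes these 2 pools.

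Values are signal intensities on a linear scale, and in each pair of signals without a label the control pool comes first. A probe set was taken as measured when the brighter of its 2 signals reached 80.7, the median of all values. A gene stands on its brightest measured probe set. Its log2 ratio is the mutant over the control signal after adding 22.2 to each, so that ratios of dim genes are understated. Where a signal lay under 80.7, the fold is written as "at least" the brighter signal over 80.7. The only error that could be estimated is the spread between probe sets of the same gene. Its SD on the log2 ratio was 0.38 over 5118 genes, and it ranged from 0.47 among the dimmest to 0.32 among the brightest 25% of probe sets.

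Genes that report on the alleles were looked at first. Hhip, a hedgehog target, read 1.1 in control ovaries and 3216 in mutant ovaries, and Ptch1, the hedgehog receptor and a target, read 5574 and 15949. Amhr2 read 8591 and 3486 on its brightest probe set, and its 3 measured probe sets had log2 ratios from -1.30 to -0.26. The signal ratio of 3′ to 5′ probe sets, a sign of RNA integrity, was 8.48 in control ovaries and 10.5 in mutant ovaries for beta-actin, and 3.28 and 4.98 for Gapdh. Both ratios were higher in mutant RNA, and the part of this in the results below was not tested.

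Members of the pathway were more often higher than lower in the mutant pool. In such bulk RNA, a change in the number of cells of a type and a change in RNA per cell cannot be told apart. Of the 56 genes 41 were measured and 15 were under the minimum on both arrays. By the log2 ratio, 11 of the 41 were at least 1.5-fold higher (26.8%), against 9.32% of all 12308 measured genes. Adcy4 and Akap6 count among the 11 although their control signals were under the minimum, with bounds of at least 1.04-fold and 1.64-fold. When both signals had to reach the minimum, 9 of 39 members were at least 1.5-fold higher (23.1%, against 7.18% of all genes) and 4 at least 2-fold (against 1.96%). Pde7b alone was at least 1.5-fold lower (2.44% of the members, against 7.9% of all genes). At 2-fold of the log2 ratio, 5 members were higher (12.2%, against 3.21%) and 0 were lower (against 1.4%). The 5 were Adcy7, Adcy3, Prkar2b, Pde5a and Akap6. Pde4b, at 2.13-fold by its signals alone, had a log2 ratio of 0.93 after the pseudocount and is not among them. The median log2 ratio of the 41 was 0.22 (range -0.65 to 2.07), while that of all genes was -0.02. A ratio above 0 was found for 29 members and one below 0 for 12, and 47.5% of all genes lay above 0. With the signal minimum raised to the 75th percentile of all values, 5 of 30 members were at least 1.5-fold higher (16.7%, against 7.07% of all genes). A gene that is dim in 1 pool counts as measured only through the pool in which it is bright, so the shares of dim genes are partly set by that rule.

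**Figure D1:**
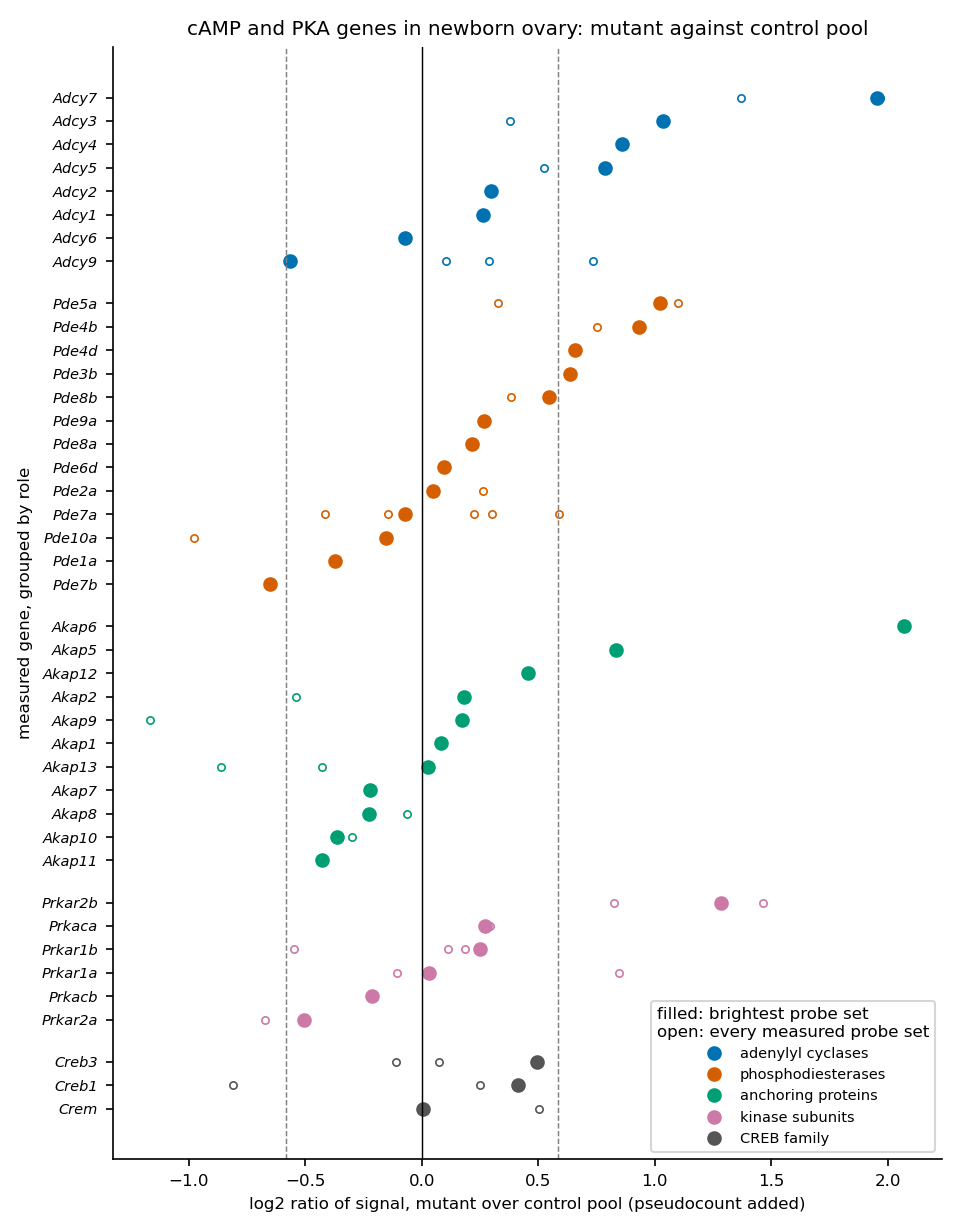
Log2 ratio of signal, mutant over control pool, for the 41 measured genes, grouped by role. Filled points stand for the brightest probe set of a gene and open points for every other measured one, the dashed lines mark 1.5-fold, and there are no error bars because each pool was hybridised once. Adcy7, Prkar2b and Pde5a have all their probe sets to the right of 0, whereas those of Adcy9, Creb1 and Pde7a lie on both sides.

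**Figure D2:**
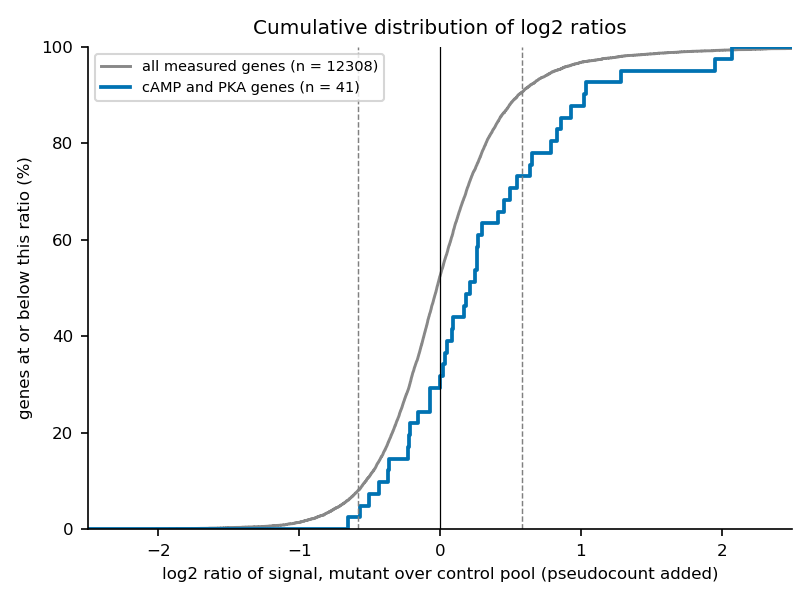
Cumulative share of genes (vertical axis, percent) at or below a given log2 ratio (horizontal axis) for the 41 members and all 12308 measured genes, with ratios beyond 2.5 in size not drawn. The members' curve runs to the right of the curve of all genes, with medians of 0.22 and -0.02.

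Of the adenylyl cyclases, Adcy7 stood out. Adcy7 belongs to the cyclases that G protein beta-gamma subunits enhance, and it is best known from blood cells. Its brightest probe set read 2623 in control ovaries and 10227 in mutant ovaries (3.90-fold, log2 ratio 1.95). The second read 274 and 1135 (log2 ratio 1.97), and the dimmest 48.4 and 160 (log2 ratio 1.37). All 3 probe sets were thus higher in the mutant pool, and the brightest ratio was 6.14 times the SD between probe sets of its signal range. Among the 12308 measured genes, ordered from the highest log2 ratio, Adcy7 held rank 90.

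The other members of the same subfamily went the same way by less. Adcy4, which is known from endothelial cells, read 36.3 and 83.9 on its single probe set. That is a log2 ratio of 0.86 but a bound of only at least 1.04-fold, because the mutant signal barely passed the minimum. Adcy2, a mainly neuronal cyclase, read 810 and 1001 (log2 ratio 0.30), within the probe-set spread.

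Adcy3, the calcium-sensitive cyclase of olfactory and neuronal cilia, had conflicting sizes. Its chosen probe set read 185 in control ovaries and 402 in mutant ovaries (2.17-fold, log2 ratio 1.03). A nearly equally bright one read 252 and 335 (log2 ratio 0.38). Both were higher in the mutant pool, but the 2-fold call rests on the first, which can detect several transcripts. Its remaining 2 probe sets stayed under the minimum.

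Adcy5 and Adcy6 are the cyclases that calcium inhibits. Adcy5 read 93.2 and 177 (1.90-fold, log2 ratio 0.79), and 102 and 157 on its other measured probe set (log2 ratio 0.53). Adcy6 read 511 and 485 (log2 ratio -0.07). Adcy5 was therefore higher in the mutant pool at signals close to the minimum, and the brighter Adcy6 was level.

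Adcy9, a widely expressed cyclase that forskolin barely stimulates, was the one lower cyclase of some size. Its brightest probe set read 851 in control ovaries and 568 in mutant ovaries (log2 ratio -0.57), just inside 1.5-fold. The other 3 measured probe sets had log2 ratios of 0.10, 0.29 and 0.73, so its direction is not settled, and the mean over all 4 was 0.14. Adcy1, a calcium-stimulated neuronal cyclase, read 130 and 161 (log2 ratio 0.26). Adcy8, its relative, and Adcy10, the soluble bicarbonate-sensitive cyclase, stayed under the minimum with signals of at most 18.6 and 53.3.

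**Figure D3:**
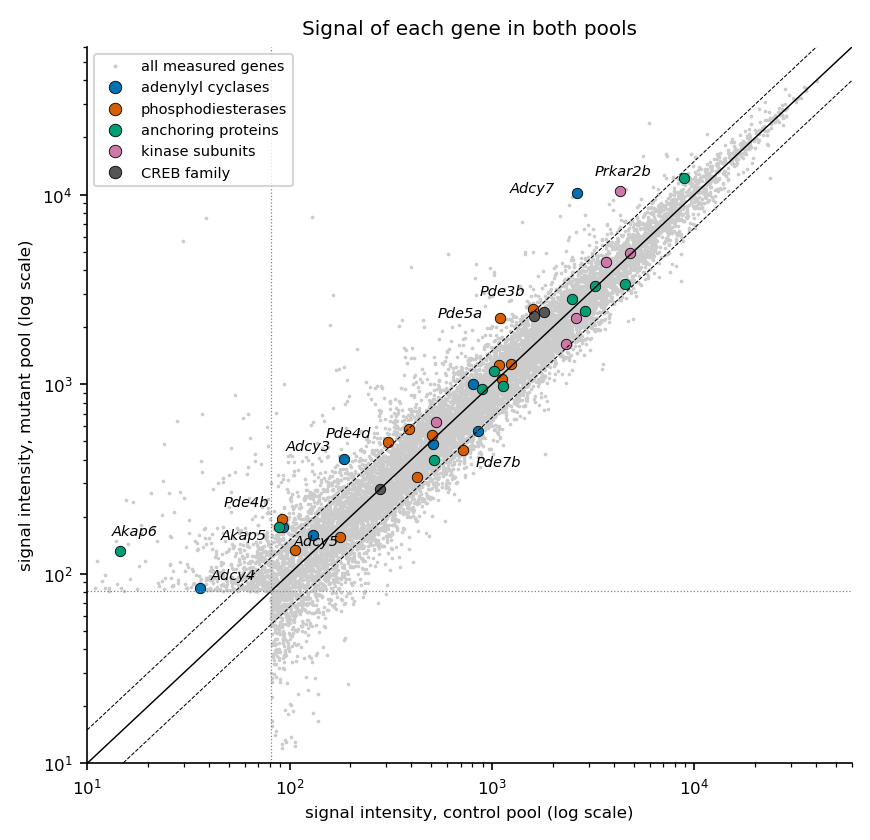
Signal intensity in the mutant pool (vertical, log scale) against the control pool (horizontal, log scale) for all measured genes (grey) and the members (coloured by role), with both axes starting at 10. The solid line marks equal signals, dashed lines 1.5-fold and dotted lines the signal minimum of 80.7. Adcy7 and Prkar2b lie far above the line at the bright end of the plot, whereas Akap6 and Adcy4 lie left of the minimum in the control pool.

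On the brightest probe sets, 1 of the 6 PKA subunits was at least 1.5-fold higher (16.7%, against 9.32% of all genes). On these, 0 were at least 1.5-fold lower (against 7.9%). Prkar2b, the type II beta regulatory subunit, which follicle-stimulating hormone is known to raise in rat granulosa cells, read 4282 in control ovaries and 10453 in mutant ovaries (2.44-fold, log2 ratio 1.28). Its second probe set read 1463 and 4081 (log2 ratio 1.47) and the third 359 and 652 (log2 ratio 0.82). All 3 were higher in the mutant pool, and Prkar2b held rank 240 of all measured genes.

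Its closest relative Prkar2a, the type II alpha subunit, went the other way. It read 2319 and 1624 (log2 ratio -0.51), and 842 and 519 on its other measured probe set (log2 ratio -0.67). Both probe sets were lower in the mutant pool, the second by over 1.5-fold. The log2 ratios of Prkar2b and Prkar2a differed by 1.79.

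The type I regulatory subunits showed less difference. Prkar1a, the ubiquitous subunit whose loss causes Carney complex in humans, read 4803 and 4912 (log2 ratio 0.03), and 2190 and 2035 on its second probe set. The remaining dim probe set read 46.6 and 102 (log2 ratio 0.85). Prkar1b, a mainly neuronal subunit, read 530 and 635 (log2 ratio 0.25), but its 4 measured probe sets ranged from -0.55 to 0.25. The one at -0.55 read 175 and 112.5, and the others can detect several transcripts, so the direction of Prkar1b is not settled. Neither gene reached 1.5-fold on its brightest probe set.

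The catalytic subunits differed little between the pools. Prkaca, the main catalytic subunit, read 3649 and 4406 (log2 ratio 0.27), and 334 and 414 on a second probe set. Prkacb read 2586 and 2223 (log2 ratio -0.22). Both ratios lay within the probe-set SD.

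**Figure D4:**
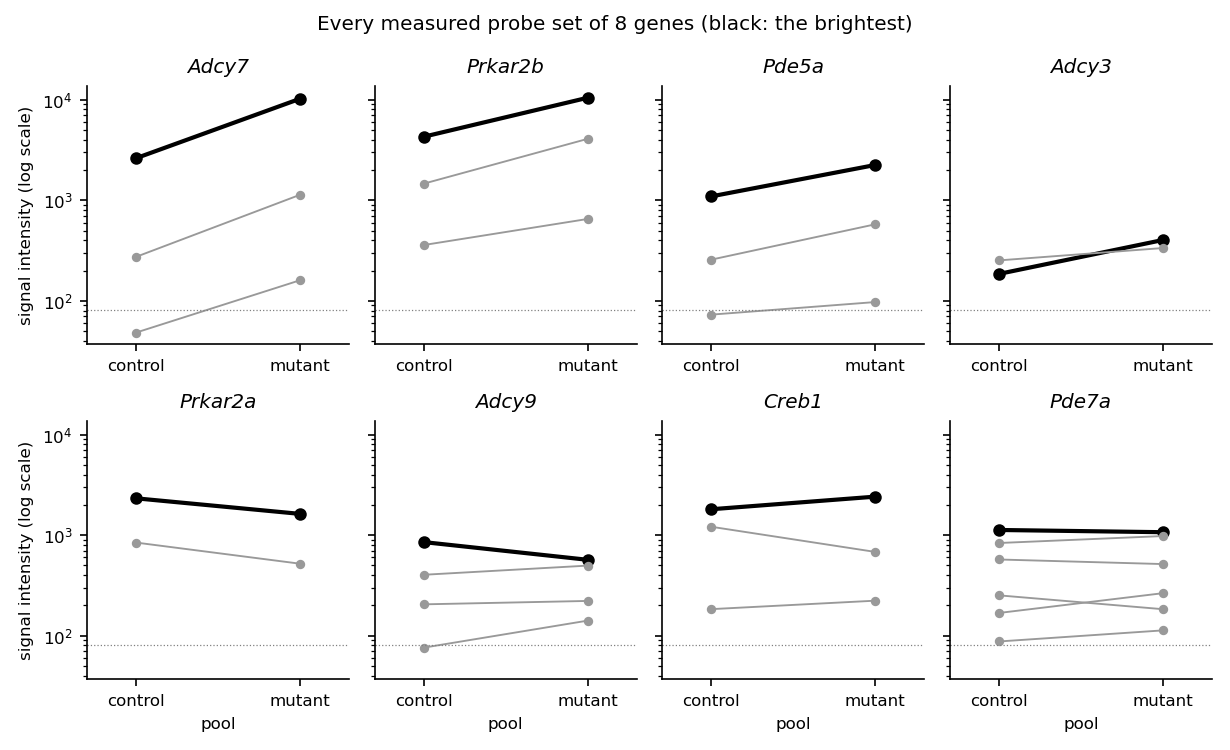
Signal intensity (vertical, log scale) in the control and mutant pools for every measured probe set of 8 genes, with lines joining the 2 signals of a probe set, the brightest in black and the signal minimum of 80.7 dotted. Lines of Adcy7, Prkar2b, Pde5a and Adcy3 all go up, both of Prkar2a go down, and those of Adcy9, Creb1 and Pde7a go in both directions.

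The promoters of Adcy7, Prkar2b and Prkar1a are printed because the first 2 genes were the brightest members at 2-fold or more, and Prkar1a is the regulatory subunit that was level. The sequences are from RefSeq on GRCm38.p6 and run 5′ to 3′ on the strand of the gene, from 250 bases before to 50 bases after an annotated start. Capitals mark the half-site TGACG of the cyclic AMP response element, the site that CREB binds, on either strand. The full element TGACGTCA holds the half-site on both strands. Adcy7 has 3 promoters, Prkar2b has 2 and Prkar1a has 6 in that table, and the 1 printed for Adcy7 and for Prkar1a is one that holds a site.
Adcy7, chr8:88282742-88283041, plus strand: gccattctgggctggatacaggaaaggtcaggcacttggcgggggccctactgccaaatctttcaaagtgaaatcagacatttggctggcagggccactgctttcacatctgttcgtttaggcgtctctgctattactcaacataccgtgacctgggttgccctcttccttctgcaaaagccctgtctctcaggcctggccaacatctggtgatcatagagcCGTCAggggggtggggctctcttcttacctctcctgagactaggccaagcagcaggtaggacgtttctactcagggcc
Prkar2b, chr12:32061228-32061527, minus strand: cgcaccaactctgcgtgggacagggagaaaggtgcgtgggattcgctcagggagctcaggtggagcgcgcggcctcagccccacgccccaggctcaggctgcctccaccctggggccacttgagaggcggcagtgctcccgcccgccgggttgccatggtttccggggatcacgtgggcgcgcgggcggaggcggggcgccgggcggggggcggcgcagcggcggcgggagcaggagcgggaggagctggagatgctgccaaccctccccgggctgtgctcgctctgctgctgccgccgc
Prkar1a, chr11:109650699-109650998, plus strand: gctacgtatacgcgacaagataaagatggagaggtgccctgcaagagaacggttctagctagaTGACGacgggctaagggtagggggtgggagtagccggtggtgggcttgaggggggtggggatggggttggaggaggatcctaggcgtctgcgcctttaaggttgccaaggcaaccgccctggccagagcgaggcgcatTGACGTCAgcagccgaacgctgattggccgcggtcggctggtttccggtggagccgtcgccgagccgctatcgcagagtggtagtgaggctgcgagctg
In the Adcy7 sequence a half-site on the reverse strand begins 28 bases before the start. Neither Prkar2b promoter holds these letters. The full element was found in Prkar1a alone among the 44 members with a promoter in the table (2.27%), against 2.03% of 27025 genes, and in its sequence above it begins 49 bases before the start. A half-site was found in 15 of the 44 members (34.1%, against 23.0% of all genes) and in 2 of the 10 members at least 1.5-fold higher that had a promoter. A gene with several promoters counts once if any of them holds the letters. Counted by promoter, the half-site was in 17 of 87 member promoters (19.5%), against 20.8% of all 32851 promoters. The Gli motif letters GACCACCCA, searched on both strands, occurred in 0 of the 44 and in 0.289% of all genes. Such matches describe the letters in these windows only.

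Among the phosphodiesterases, Pde5a had the highest log2 ratio. Pde5a breaks down cyclic GMP only, is abundant in smooth muscle and is the target of sildenafil. It read 1093 in control ovaries and 2242 in mutant ovaries (2.05-fold, log2 ratio 1.02). Its other probe sets read 257 against 577 in the mutant pool (log2 ratio 1.10), and 72.9 against 97.2 (log2 ratio 0.33). The 2 brighter probe sets were both about equally higher in the mutant pool, and the dim one by less.

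The cyclic AMP-specific Pde4 enzymes, the targets of rolipram, were higher where measured. Pde4b, an enzyme of leukocytes and brain, read 91.3 and 194 (2.13-fold, log2 ratio 0.93), and 71.3 and 135 on a second probe set (log2 ratio 0.75). Its other 4 probe sets were under the minimum. Pde4d read 306 and 495 (1.62-fold, log2 ratio 0.66) on its 1 measured probe set. Pde4a stayed dim, with signals of 50.9 and 60.8.

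Pde3b, which cyclic GMP inhibits and which insulin activates in fat cells, read 1602 and 2505 (1.56-fold, log2 ratio 0.64). The Pde8 enzymes have a high affinity for cyclic AMP and are known from steroid-making cells of the mouse adrenal and testis. Pde8b read 388 and 577 (log2 ratio 0.55), just short of 1.5-fold, and its second probe set 165 and 222 (log2 ratio 0.38). Pde8a read 1084 and 1262 (log2 ratio 0.22).

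Pde7b, a cyclic AMP-specific enzyme, was the member with the lowest ratio. It read 717 in control ovaries and 448 in mutant ovaries (1.60-fold lower, log2 ratio -0.65), a ratio of -1.86 in units of the SD of its signal range. Its other 2 probe sets were under the minimum. Its paralogue Pde7a read 1124 and 1068 (log2 ratio -0.07), and its 6 measured probe sets spread from -0.41 to 0.59.

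The remaining phosphodiesterases stayed inside 1.5-fold. The calcium-dependent enzyme Pde1a read 424 and 323 (log2 ratio -0.37). Pde2a, which cyclic GMP stimulates, read 1241 and 1285 (log2 ratio 0.05). Pde10a, an enzyme of the striatum, read 177 and 157 (log2 ratio -0.15), while a dimmer probe set read 123 and 51.3 (log2 ratio -0.98). The cyclic GMP-specific Pde9a read 107 and 133 (log2 ratio 0.27). Pde6d, which carries prenylated proteins into cilia rather than breaking down nucleotides, read 503 and 538 (log2 ratio 0.09).

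By substrate, 2 of 6 measured cyclic AMP-specific enzymes were at least 1.5-fold higher (against 9.32% of all genes) and 1 was lower (against 7.9%). Of the 3 measured members of the cyclic GMP-specific families 1 was higher, as was 1 of the 4 enzymes that take both nucleotides. With so few enzymes in each group, no pattern by substrate is read from these counts. Over all 13 measured phosphodiesterases 4 were at least 1.5-fold higher (30.8%, against 9.32% of all genes), 1 was lower (7.69%, against 7.9%), and the median log2 ratio was 0.22. The 10 that were not measured include Pde3a, the enzyme that controls meiotic arrest in mouse oocytes, whose 3 probe sets read at most 37.6. Pde1b, Pde1c and Pde11a, and the photoreceptor genes Pde6a, Pde6b, Pde6c, Pde6g and Pde6h, also stayed under the minimum, with signals of at most 73.1.

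Most anchoring proteins differed little. Akap6, which gathers PKA and phosphodiesterases at the nuclear envelope of heart muscle, had the highest log2 ratio of all members, at 14.5 in control ovaries and 132 in mutant ovaries (log2 ratio 2.07). The bound is only at least 1.64-fold, and its second probe set read 26.0 and 28.5, so this value rests on 1 dim probe set. Akap5, a plasma membrane anchor of PKA, calcineurin and protein kinase C, read 88.9 and 176 (1.98-fold, log2 ratio 0.83), and its other 2 probe sets stayed under the minimum.

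Akap12 (gravin), a membrane-associated scaffold, was the brightest anchoring gene, at 8918 and 12225 (log2 ratio 0.45). Akap11, an anchor of vesicles that also binds glycogen synthase kinase, read 4553 and 3374 (log2 ratio -0.43). Akap13, a large anchor known from heart muscle, read 3222 and 3277 (log2 ratio 0.02), whereas its 2 dimmer probe sets had log2 ratios of -0.43 and -0.86. Akap8, an anchor of the nuclear matrix, read 2868 and 2446 (log2 ratio -0.23).

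Akap9, the anchor of centrosome and Golgi, read 2494 and 2812 (log2 ratio 0.17), and its other measured probe set read 100 against 32.4 in the mutant pool. Akap1, of the outer mitochondrial membrane, read 892 and 946 (log2 ratio 0.08). Akap2 had a log2 ratio of 0.18, Akap7 of -0.22 and Akap10 of -0.36. None of these 5 reached 1.5-fold on its brightest probe set. The sperm tail anchors Akap3 and Akap4 and the ciliary Akap14 were under the minimum, at 67.0 or less. In all, 2 of 11 measured anchoring genes were at least 1.5-fold higher by the log2 ratio (18.2%, against 9.32% of all genes) and 0 lower (against 7.9%), with a median log2 ratio of 0.08. Akap6, 1 of the 2, was measured in the mutant pool only.

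The CREB family did not reach 1.5-fold. Creb3, a factor anchored in the endoplasmic reticulum membrane, read 1611 and 2278 (log2 ratio 0.49), and 0.07 and -0.11 were the log2 ratios of its other measured probe sets. Of these, only the one at -0.11 is not of the kind that can detect several transcripts. Creb1, the CREB of PKA signalling, read 1807 and 2411 (log2 ratio 0.41). A second bright Creb1 probe set read 1209 in control ovaries and 680 in mutant ovaries (log2 ratio -0.81), and the third 184 and 223 (log2 ratio 0.25). Crem, a relative with activator and repressor forms, read 279 and 280 (log2 ratio 0.003), and 174 and 256 on its second probe set. The bright Creb1 probe sets thus disagreed in direction by more than the probe-set SD.

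How far probe sets of 1 gene agree bears on all of these values. Of the 41 members 23 had at least 2 measured probe sets. In 14 of the 23 all lay on the same side of 0, and in 9 they lay on both sides. Of the 11 higher members 6 had a second measured probe set, which was above 0 in 6 and at least 1.5-fold higher in 4. Over all genes, 398 of the 1147 higher ones had a second. It was above 0 in 322 of the 398 and at least 1.5-fold higher in 163. Among the members, the second probe set of Pde4b reached the minimum in the mutant pool only. Probe sets under the minimum are left out of these counts, and those of the 11 members lay on both sides of 0. The agreement is therefore partly set by the rule for measured probe sets. Adcy7, Adcy3, Prkar2b, Pde5a, Pde3b and Akap6 had ratios of at least 2 times the SD of their signal range (14.6% of the members, against 5.69% of all genes), with Pde3b at 2.00 times. No member was as far below 0 (against 3.91% of all genes). Akap6 counts here although its control signal of 14.5 was under the minimum, so its place is partly set by the rule for measured genes. The SD count with both signals required to reach the minimum was not made. Across 10 other ways of processing the values, Adcy7 ranged from 1.76 to 1.98, Prkar2b from 1.19 to 1.47 and Pde5a from 0.82 to 1.10, whereas Akap6 ranged from 0.71 to 2.81 and Adcy4 from 0.06 to 1.11.

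**Figure D5:**
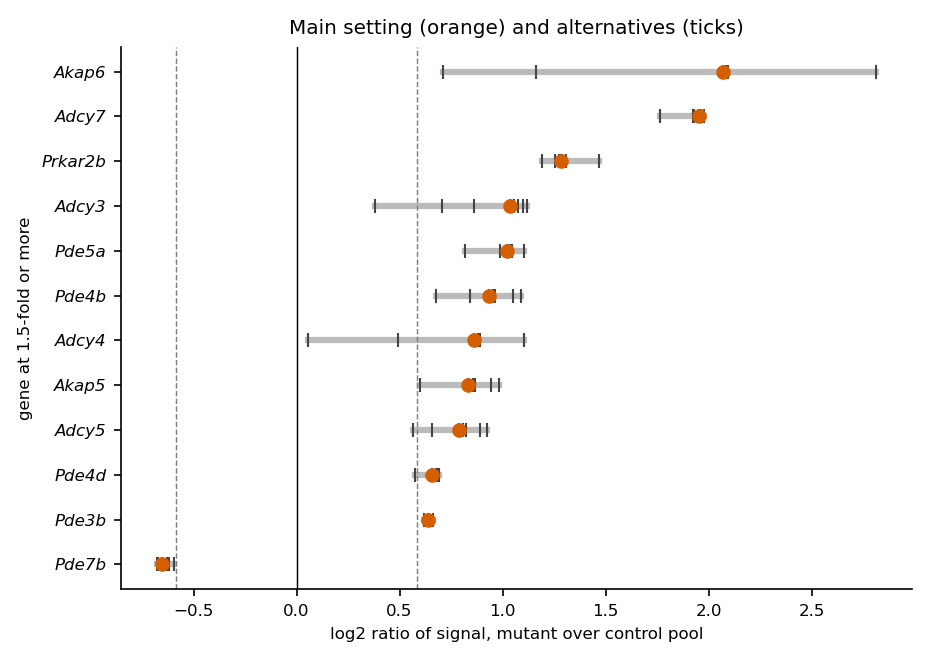
Log2 ratio of signal (horizontal axis, mutant over control pool) of the 12 members at 1.5-fold or more in either direction. Orange points give the value as reported, ticks the values under up to 10 alternative settings, grey bars their range and dashed lines 1.5-fold. Adcy7, Prkar2b and Pde5a stay above the line under every alternative, whereas Adcy3, Adcy4, Adcy5 and Pde4d fall under it in at least 1.

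The rest of the pathway was taken from 7 lists. The G protein list, with 8 of 9 genes measured, had 0 genes at 1.5-fold in either direction and a median log2 ratio of 0.20. Gnas, the stimulatory alpha subunit, read 10513 and 11993 (log2 ratio 0.19). The largest ratios were 0.57 for Gnai1, an inhibitory alpha subunit, 0.45 for Gng2, -0.29 for Gnaz and 0.22 for Gnai2.

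Of the receptors that act through the stimulatory G protein, 8 of 19 were measured (median log2 ratio 0.40). By the log2 ratio, 3 were at least 1.5-fold higher (against 9.32% of all genes) and 0 lower (against 7.9%). Ptger4, a prostaglandin E2 receptor, read 434 and 726 (1.67-fold, log2 ratio 0.71). Mc2r, the corticotropin receptor of the adrenal cortex, read 81.8 and 157 (1.92-fold, log2 ratio 0.79). Adcyap1r1, the receptor of the neuropeptide PACAP, read 43.3 and 108 (log2 ratio 0.99), with a bound of only at least 1.34-fold. All 3 were dim or moderate in signal. Calcrl had a log2 ratio of 0.44, and Gpr161, the ciliary receptor that feeds PKA in hedgehog control, had 0.12 (595 and 650). Fshr, the receptor of follicle-stimulating hormone, stayed under the minimum at 44.1 or less, and Lhcgr was not analysed here.

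Other effectors of cyclic AMP and the PKA inhibitors, with 6 of 12 measured, had a median log2 ratio of 0.15. At 1.5-fold, 0 were higher (against 9.32% of all genes) and 0 lower (against 7.9%). Rapgef3, the exchange factor Epac1, had a log2 ratio of 0.40, the PKA inhibitor Pkia 0.19, Popdc3 0.31 and the PKA-related kinase Prkx -0.45. Of the CREB relatives and coactivators 13 of 14 were measured (median log2 ratio 0.10). Among them 0 were at least 1.5-fold lower (against 7.9% of all genes) and 1 was that much higher (against 9.32%). That 1 was Atf4, a stress-response factor, at 2205 and 4331 (1.96-fold), but its second probe set had a log2 ratio of only 0.15. Creb3l1 had 0.49, Crtc1, a CREB coactivator, -0.57 and Sik3 0.27.

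Genes often induced through cyclic AMP and CREB had log2 ratios above 0 in 8 and below 0 in 4 (47.5% of all genes lay above 0). Of 16 listed 12 were measured, with 3 at least 1.5-fold higher (against 9.32% of all genes) and 0 lower (against 7.9%). Their median log2 ratio was 0.42. Star, which brings cholesterol into mitochondria, read 164 in control ovaries and 2945 in mutant ovaries (18.0-fold), and is also counted among the steroidogenic markers below. Nr4a2, an orphan nuclear receptor, read 413 and 852 (2.06-fold), but its 3 measured probe sets ranged from -0.32 to 1.00. Sgk1, a kinase, read 758 and 1283 (1.69-fold). Ppargc1a had a log2 ratio of 0.52, and the immediate early genes Fos and Nr4a1 had -0.26 and -0.14.

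Of 10 listed cyclic GMP genes 8 were measured, with 5 at least 1.5-fold higher (against 9.32% of all genes) and 0 lower (against 7.9%). Their median log2 ratio was 0.74. Prkg1, the cyclic GMP-dependent kinase of smooth muscle, read 397 and 874 (2.20-fold). Gucy1a2, a subunit of soluble guanylyl cyclase, read 532 and 1151 (2.16-fold), and Gucy1b1, its beta partner, 770 and 1258, with a second probe set at -0.15 on the log2 scale. Npr3, a clearance receptor of natriuretic peptides, read 409 and 726 (1.77-fold), and its ligand gene Nppc 71.2 and 147 (at least 1.82-fold). The brightest cyclase subunit, Gucy1a1, read 6474 and 5290 (log2 ratio -0.29), within the probe-set SD of 0.32 of its signal range. The seventh list held hedgehog-related genes and Amhr2. Of its 10 genes 4 were at least 1.5-fold higher (against 9.32% of all genes) and 1 was lower (against 7.9%). The lower one was Amhr2, which the genotype itself alters. Gli1, a target that reads out the hedgehog pathway, read 103 and 264 (2.56-fold).

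Markers of several cell types differed between the pools. Over all genes, 9.32% were at least 1.5-fold higher, 7.9% that much lower and 3.21% at least 2-fold higher. The 5 steroidogenic markers were all at least 2-fold higher in the mutant pool on their brightest probe sets. Their summed signal was 7007 in control ovaries and 44270 in mutant ovaries. Cyp17a1 and Cyp11a1 had control signals under the minimum, with bounds of at least 93.3-fold and 70.6-fold. The 2 measured probe sets of Cyp11a1 had log2 ratios of 0.26 and 6.79. Stromal markers were at least 1.5-fold higher in 4 of 5 (summed signal 22848 and 36716), and leukocyte markers in 4 of 5 (4439 and 7506). Leukocytes are a known site of Adcy7 and Pde4b, and smooth muscle of Pde5a and Prkg1. Smooth muscle markers were higher in 2 of 5 and lower in 1 (8677 and 13971). The lower one, Des, was under the minimum in the mutant pool with a bound of at least 1.13-fold lower, and Cnn1 was under the minimum in both pools. The part of these cell types in the results above was not tested.

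Most germ cell and pregranulosa markers had ratios below 0. All 9 oocyte markers had log2 ratios below 0, with 4 at least 1.5-fold lower (summed signal 48707 and 34422). Of the 6 pregranulosa markers 4 were that much lower (34545 and 25354), Amhr2 among them, which the genotype itself alters. Kitl, the brightest of the 6, read 12948 and 14627 (log2 ratio 0.18). Endothelial markers were higher in 1 of 4 by the log2 ratio (1518 and 1804), and that 1, Pecam1, had a bound of at least 1.45-fold. Erythroid markers were lower in 2 of 3 (2523 and 1154). Markers of adrenal medulla and nerve were higher in 3 of 5 by the log2 ratio (416 and 597). Those 3 had control signals under the minimum, and their bounds were at least 1.12-fold for Dbh, 1.28-fold for Pnmt and 2.00-fold for S100b. Those of sperm and of skeletal muscle were all under the minimum, which gave 0 of 4 measured in each list.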

How the data were processed

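The authors deposited 1 column of signal intensity per array, on a linear scale. The submitters' processing notes name GCOS, whose settings these sources do not state. Both columns had a mean of 500.003 without the lowest and highest 2% of values, so they share a scale, and they were used as deposited. Of 45101 probe sets 34945 carried 1 gene symbol in the platform annotation, 932 carried several, and 9211 were not listed and are unnamed here. Of the 56 member symbols 55 matched a RefSeq table (GRCm38.p6) through the Entrez ID, and Akap2 kept its array name. Of these 56 genes 44 had a promoter in the RefSeq sequence table. The signal minimum (50th percentile, 80.7), the pseudocount (25th percentile, 22.2) and the ratios were computed with Python 3.11.15, NumPy 2.4.6 and pandas 2.3.3, and tested on simulated data. Control probe sets for Bacillus transcripts read 23.7 at most. Counts are given at 1.5-fold and 2-fold of the log2 ratio.

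Named are all members, and up to 4 genes of each pathway list with the largest absolute ratio. Gnas, Gpr161, Fshr, Fos, Nr4a1, Gucy1b1, Gucy1a1 and the cell type markers were named after their values were seen. Members and lists were chosen with earlier results of these data known. Precision is limited by the number of arrays. As a check, 10 alternative settings were tried.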

Additional observations from a re-analysis of the deposited data

How the results depend on the processing

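All 10 alternatives kept the median log2 ratio of the members above that of all genes (0.09 to 0.24), and no member at 1.5-fold or more changed sign. Of the 12 such members 8 stayed at 1.5-fold under every alternative that measured them. The exceptions were Adcy3 (0.38 with probe sets shared between transcripts left out), Adcy4 (0.06 with dim values raised to the minimum, and 0.49 with a pseudocount of the overall median), and Adcy5 and Pde4d (0.57 each with that pseudocount). The 11 members at 1.5-fold or more higher became 5 when the minimum was the 75th percentile, where only 30 members were measured. The 5 at 2-fold became 3 under that minimum, with a pseudocount of the overall median, and with the mean over the measured probe sets of a gene, and 7 with a pseudocount of the 10th percentile. Members at 1.5-fold or more lower numbered 1, against 3 with no signal minimum and 2 with the mean over probe sets, and those at 2-fold lower numbered 0, against 1 with no minimum. Over the other settings the count higher at 1.5-fold lay between 8 and 12. The brightest probe sets of Adcy9 and Creb1 gave -0.57 and 0.41, and the means over their probe sets 0.14 and -0.05. No paired analysis was possible because each group holds 1 array.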

Other observations

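Genes with like names that the member rule does not take were looked up after the members' values were seen. Pde4dip, which binds a phosphodiesterase at the Golgi, read 624 in control ovaries and 806 in mutant ovaries (log2 ratio 0.36). Akap8l, a nuclear relative of Akap8, read 986 and 727 (log2 ratio -0.43), and Akap17b 3095 and 2215 (log2 ratio -0.48). Pde12, a mitochondrial RNA-trimming enzyme that only shares the name, had 0.26. None of these 4 reached 1.5-fold on its brightest probe set. The AMP-activated kinase, which answers to AMP and not to cyclic AMP, had Prkaa1, a catalytic subunit, at 127 and 272 (log2 ratio 0.98), while its subunits Prkab2 and Prkag2 had -0.52 and -0.48. Adcyap1, the gene of the ligand PACAP, stayed under the signal minimum at 32.7 or less.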
